A study of Mus musculus with 34 samples.

Results

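The red cell membrane is held to an inner protein mesh, the membrane skeleton, and the genes described here encode parts of both. The set was chosen by name, as 8 genes that build this structure, by a rule that uses no measured value: Sptb, Ank1, Epb41, Epb42, Slc4a1, Rhag, Kel and Ermap. Of these 8, 7 had at least 1 probe set named for them, out of 18193 genes with a probe set on the array, and they were read by 14 probe sets. Epb41, which joins spectrin to actin at the junctions of the mesh, was not analysed here.

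Spectrin tetramers form the mesh, and ankyrin and the Epb42 protein tie it to band 3, the anion exchanger that spans the lipid bilayer. The Rh-associated glycoprotein, the Kell glycoprotein and the ERMAP protein are carried on the red cell surface, where they bear blood group antigens in humans. The transcripts build up as erythroblasts mature, and fetal liver is the main site of that maturation at mid-gestation.

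The study measured RNA of whole, unfractionated mouse fetal liver on 34 one-colour Affymetrix arrays, 1 RNA sample each. The groups were 6 livers labelled Rb1;p107;p130 TKO (triple knockout), 5 Rb1;p107 DKO (double knockout), 9 Rb1;p130 DKO, 2 Rb1 KO, 6 p107;p130 DKO, 3 p130 KO, 1 p107 KO and 2 wild type. Rb1 and its relatives Rbl1 (p107) and Rbl2 (p130) encode the pocket proteins, which hold E2F factors in check and so keep cells from dividing. All livers were untreated, and every label gave embryonic day 14.5, while the series design gave a range that begins earlier. The labels name no strain, allele or Cre driver, so whether a deletion covered all cells of the liver is not known, and they do not say whether arrays came from separate fetuses. P-values therefore measure the spread between these samples only.

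The signals of the deleted genes went with the labels. Rb1 read 756 to 1746 on the 22 arrays labelled as lacking it, against 5208 to 9085 on the 12 others. Rbl1 read 43.9 to 139.4 on 18 arrays labelled as lacking p107, against 1185 to 2713 on 16, and Rbl2 read 105.5 to 265.4 on 24 arrays labelled as lacking p130, against 246.2 to 481.3 on 10, which overlaps. The tissue label was borne out by the hepatocyte genes Afp (30170 to 52400) and Alb (25679 to 48157) and by the erythroid factor Gata1 (5419 to 9122). The arrays were also clustered by the difference between probe sets of the same gene, with genotype and the genes of every list used here left out. The tree was cut into 3 clusters, of 15, 10 and 9 arrays, here called array groups 1, 2 and 3. The number 3 was set and not found from the data. The mean correlation of an array with the others of its group ran from 0.12 (Rb1;p107;p130 TKO array 2) to 0.52 (array 4 of that genotype). The array groups are not a recorded batch, but 87.7% of the variance of the leading principal component of the tested genes lay between them, against 30.4% between genotypes. Array group 1 held arrays of 7 genotypes and array group 2 of 5, while 7 of the 9 arrays of array group 3 were Rb1;p130 DKO or Rb1;p107;p130 TKO. The members' differences in the additive fit are therefore described with array group as a block as well.

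RefSeq promoter windows (build GRCm38.p6, 250 bases before to 50 bases after the gene start) were at hand for 5 of the measured genes: Sptb, Epb42, Rhag, Kel and Ermap. All 5 windows held the letters of a GATA motif (GATA with A or T before it and A or G after it, on either strand), which GATA1, the master factor of erythroid genes, can bind, against 29.8% of all 32851 windows of that length. A match is a description and not a site. Kel is shown first because the p107 result below turns on it and because it was the only window with more than 1 match, with AGATAA beginning 56 and TGATAA 19 bases before the start. Rhag and Ermap are shown beside it as other surface proteins with a match just before the start, on the opposite strand, 31 and 67 bases before it. The 100 bases before each start are printed 5′ to 3′ on the strand of the gene, with the GATA letters in capitals, for Kel at chr6:41704326-41704425 (minus strand), Rhag at chr17:40811049-40811148 (plus strand) and Ermap at chr4:119189996-119190095 (minus strand).
Kel: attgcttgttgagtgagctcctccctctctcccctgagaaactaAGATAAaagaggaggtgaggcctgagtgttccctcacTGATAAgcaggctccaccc
Rhag: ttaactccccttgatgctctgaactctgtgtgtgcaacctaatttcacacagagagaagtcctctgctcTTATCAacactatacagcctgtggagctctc
Ermap: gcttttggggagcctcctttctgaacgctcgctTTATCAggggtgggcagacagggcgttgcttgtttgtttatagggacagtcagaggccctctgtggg

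In Sptb the GATA letters began 12 bases after the start and in Epb42 226 bases before it. The letters searched for E2F (TTTCCCGC, TTTGGCGC, TTTCGCGC or TTTGCCGC, either strand) were in 0 of the 5 windows, against 2.26% of all windows, which says only that these letters are not in these windows. The letters TTTGAA, known as the cell cycle genes homology region and searched on either strand, were in 2 of 5 (Epb42 and Rhag), against 17.9%. CCACACCC, which KLF1 can bind, was in 0 of 5, against 3.56%, and the looser CCNCNCCCN in 1 of 5 (Sptb), against 49.4%. The E-box letters CANNTG were in 3 of 5 (Sptb, Epb42 and Kel), against 72.3%. In the 5 windows 0 of the other matches shared a base with a GATA match.

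All 7 genes were bright in every liver of every genotype. The values are MAS5 signals, a linear brightness in arbitrary units that the authors scaled to a common level per array, and since each probe set binds with its own strength the level of 1 gene cannot be set against that of another. Slc4a1, band 3, read 25484 to 47655 on its brightest probe set over the 34 arrays, which is the probe set used for each gene unless another is named. Ermap read 14964 to 27552, Rhag 11920 to 22152 and Kel, an endopeptidase of the Kell blood group, 7378 to 15208. Ank1, ankyrin 1, read 8079 to 19055. Epb42, which binds ankyrin and band 3, read 1971 to 9699 and Sptb, the erythroid beta spectrin, 3529 to 8038. The ratio of highest to lowest array was between 1.84 for Ermap and 4.92 for Epb42, where the lowest value was 1 Rb1;p130 DKO array, number 9. All 7 genes passed the filter on low signal (at least 100 on at least 2 arrays).

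The raw share of variance between array groups was larger than that between genotypes for Ank1, Epb42, Slc4a1, Rhag and Ermap. For Sptb and Kel it was smaller. Genotypes outnumber array groups, so by chance alone more of the variance falls between genotypes. The shares of Sptb and Kel therefore do not rank genotype above array group. The mean of array group 2 was the highest of the 3 for 6 of the 7 genes, and Kel, highest in array group 1, was the exception. The highest array-group mean stood 1.15-fold (Epb42) to 1.57-fold (Ank1) above the lowest. The share of variance between array groups was 69.6% for Ermap, 52.9% for Rhag, 40.0% for Slc4a1 and 24.4% for Sptb, against 34.5%, 13.4%, 21.6% and 29.0% between genotypes. For Kel the shares were 37.5% between array groups and 50.7% between genotypes.

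**Figure D1:**
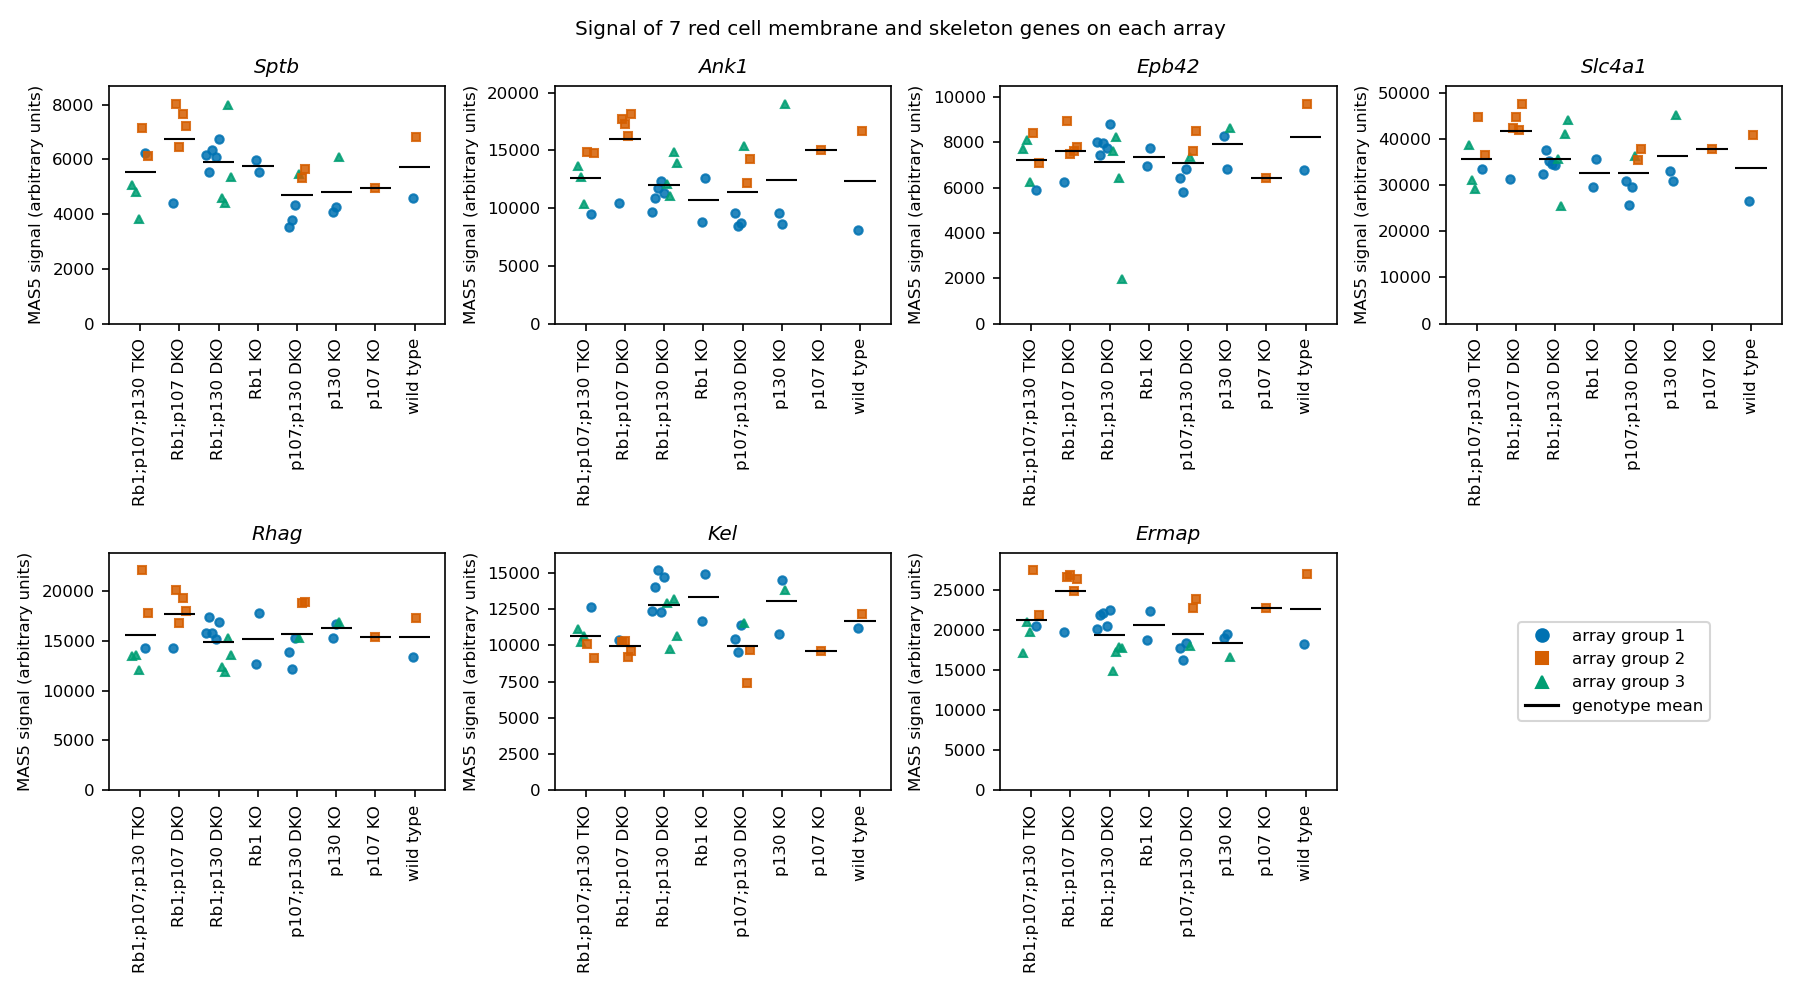
Each panel plots the MAS5 signal of 1 gene on its brightest probe set (vertical axis, arbitrary units, starting at 0) on each of the 34 arrays, by genotype with the knockouts on the left and wild type on the right; points are arrays, coloured and shaped by array group, and the bar is the genotype mean. Genotypes overlap in most panels, array group 2 lies high in every panel but Kel, and Kel is lower in the genotypes without p107.

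Genotype means lay close together, at 1.19-fold between the highest and the lowest for Rhag, the narrowest, while Ank1, the widest, averaged 15987 in Rb1;p107 DKO livers and 10687 in Rb1 KO livers. When the 8 genotypes were put in order of mean for each gene, 1 of the 49 neighbouring pairs was farther apart than the larger of their SDs, and this was an Ank1 pair next to the single p107 KO array. The order for Kel split by p107: Rb1 KO, p130 KO, Rb1;p130 DKO and wild type held the top 4 places, and the 4 genotypes without p107 the bottom 4, although no 2 neighbours differed by more than the larger SD.
A moderated F test in limma, which asks for any difference among the 8 genotypes, called 0 of the 7 genes at a Benjamini-Hochberg adjusted p under 0.05, against 0.857% of the 12723 genes tested, 109 in all. The lowest adjusted p among them was 0.192, for Kel, and 1 of the 7 had an unadjusted p under 0.05. Blocking on array group put the lowest adjusted p at 0.292 in limma, for Sptb. The spread left within genotypes was 0.19 (Kel) to 0.41 (Epb42) as an SD on the log2 scale, against a median of 0.30 over all tested genes.

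Of the skeleton genes, Sptb, whose protein is a spectrin chain of the mesh, read 3831, 5593 and 7157 (lowest, median and highest of 6) in Rb1;p107;p130 TKO livers and 4412, 6092 and 7981 in 9 Rb1;p130 DKO livers. It read 4399, 8038, 6437, 7655 and 7203 in Rb1;p107 DKO livers, 5966 and 5550 in Rb1 KO livers, and 3529, 4830 and 5663 (lowest, median and highest of 6) in p107;p130 DKO livers. The p130 KO livers read 4096, 4257 and 6087, the p107 KO array 4964, and the wild type livers 4597 and 6830. The 5 Rb1;p107 DKO arrays held both the highest value and one near the bottom, and the values of livers with and without Rb1 overlapped.

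The additive fit is a linear model over all 34 arrays in which the absence of each retinoblastoma family gene has a term of its own. The raw mean of Sptb was 5987 ± 1186 without Rb1 (SD, n = 22) and 4912 ± 991 with it (n = 12). Of the 22 arrays without Rb1, 17 were above the mean of the arrays with it. In the fit the log2 difference of Sptb, without minus with Rb1, was 0.27 ± 0.10 (SE). Its 95% confidence interval ran from 0.07 to 0.47, and the adjusted p was 0.211 in limma. With array group as a block it was 0.29 ± 0.08 with an adjusted p of 0.0261 in limma, which passes the threshold. In array group 1 Sptb read 4399 to 6736 on 9 arrays without Rb1, against 3529 to 4597 on 6 with it, and 1 array without Rb1 lay below the highest of the 6. In array group 2 the log2 difference was 0.32 (6 against 4 arrays), and in array group 3 it was -0.20 (7 against 2). The second Sptb probe set, which read a median of 117.8, gave a difference of -0.0055 ± 0.15 and an adjusted p of 0.997 in limma over all probe sets. With the block it was at 0.07 (adjusted p 0.873 in limma). Its signal lay near the filter signal of 100, so it cannot decide the call on the brightest probe set. The 2 probe sets did not move together (r = -0.05 over the 34 arrays).

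Rb1 loss called 0 of the 7 genes, against 2.26% of 12723 genes tested (288 genes, 1438 at an unadjusted p under 0.05). Of the 7, 1 had an unadjusted p under 0.05, Sptb. With the block for array group, 1 of 7 was called on its brightest probe set, again Sptb, against 4.4%. Over all probe sets, the block also called a weaker Ank1 probe set (1425677_a_at) for Rb1 loss, at 0.29 with an adjusted p of 0.0303 in limma, against 0.21 and 0.473 without the block; the brightest Ank1 probe set was at 0.08 with the block (adjusted p 0.653). The other 6 differences ran from -0.07 for Epb42 to 0.13 for Ank1, and their 95% intervals lay between -0.33 and 0.37; with the block they ran from -0.03 for Epb42 to 0.13 for Ermap. The median over the 7 genes was 0.08, against -0.02 over all tested genes. Within array groups the direction was not the same: 7 of 7 genes were higher without Rb1 in array group 1, 6 of 7 in array group 2 and 1 of 7 in array group 3, where 2 arrays carried Rb1. In bulk tissue, fewer erythroid cells and less RNA per erythroid cell cannot be told apart, and this holds for each result here.

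Ank1, the anchor between the mesh and band 3, read 9476, 13157 and 14849 (lowest, median and highest of 6) in Rb1;p107;p130 TKO livers and 9701, 11764 and 14834 in 9 Rb1;p130 DKO livers. It read 10489, 17749, 17319, 16268 and 18113 in Rb1;p107 DKO livers and 8079 and 16656 in wild type livers. Array 1 of the Rb1;p107 DKO lay below the other 4, and it was the 1 array of that genotype in array group 1. Of its variance 65.7% lay between array groups and 23.4% between genotypes. Array group 2 averaged 15720 ± 1842 (SD, n = 10) and array group 1 10022 ± 1460 (n = 15), with array group 3 at 13664 ± 2627 (n = 9). Its p107 difference turned with the choice of setting, at 0.15 ± 0.11 on the brightest probe set (adjusted p 0.530 in limma) and -0.11 with array group as a block.

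Epb42, the band 3 partner, read 1971, 7723 and 8813 (lowest, median and highest of 9) in Rb1;p130 DKO livers and 6763 and 9699 in wild type livers. The lowest value, of array 9, stood apart from the next of that genotype at 6414, and the groups otherwise overlapped. The second Epb42 probe set correlated with the first at 0.43 over arrays. Epb42 showed the least structure of the set, with 8.7% of its variance between array groups and 6.0% between genotypes.

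Slc4a1, the anion exchanger, read 29176, 35018 and 44665 (lowest, median and highest of 6) in Rb1;p107;p130 TKO livers, 31423, 42420, 44837, 41947 and 47655 in Rb1;p107 DKO livers, and 26465 and 40808 in wild type livers. These ranges overlap, and its Rb1 difference was 0.10 ± 0.08 (adjusted p 0.738 in limma; 0.485 with array group as a block). The highest signal of the whole file was 59915, and whether Slc4a1 was near the top of what the arrays can read was not tested.

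Some probe sets of the same gene disagreed. The second Slc4a1 probe set (1434502_x_at) followed the brightest at r = 0.82 over the 34 arrays, but the third (1431743_a_at) did so at -0.14 and ran from 460 to 8472, an 18.4-fold range. It read 2975 to 8472 in array group 1, 975.4 to 7029 in array group 2 and 460 to 1986 in array group 3, and 68.0% of its variance lay between array groups. Of the 3 weaker Ank1 probe sets, 1452512_a_at correlated with the brightest at -0.55 and ran the other way, at 613.9 ± 155 in array group 1 (SD, n = 15), 350.6 ± 79.5 in array group 2 (n = 10) and 301.7 ± 50.5 in array group 3 (n = 9). The other 2 correlated with the brightest at 0.01 (1425677_a_at) and 0.17 (1443291_at). The latter had a mean signal of 137.5, near the filter signal of 100. A result on 1 probe set of these genes is therefore a result on that probe set.

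**Figure D2:**
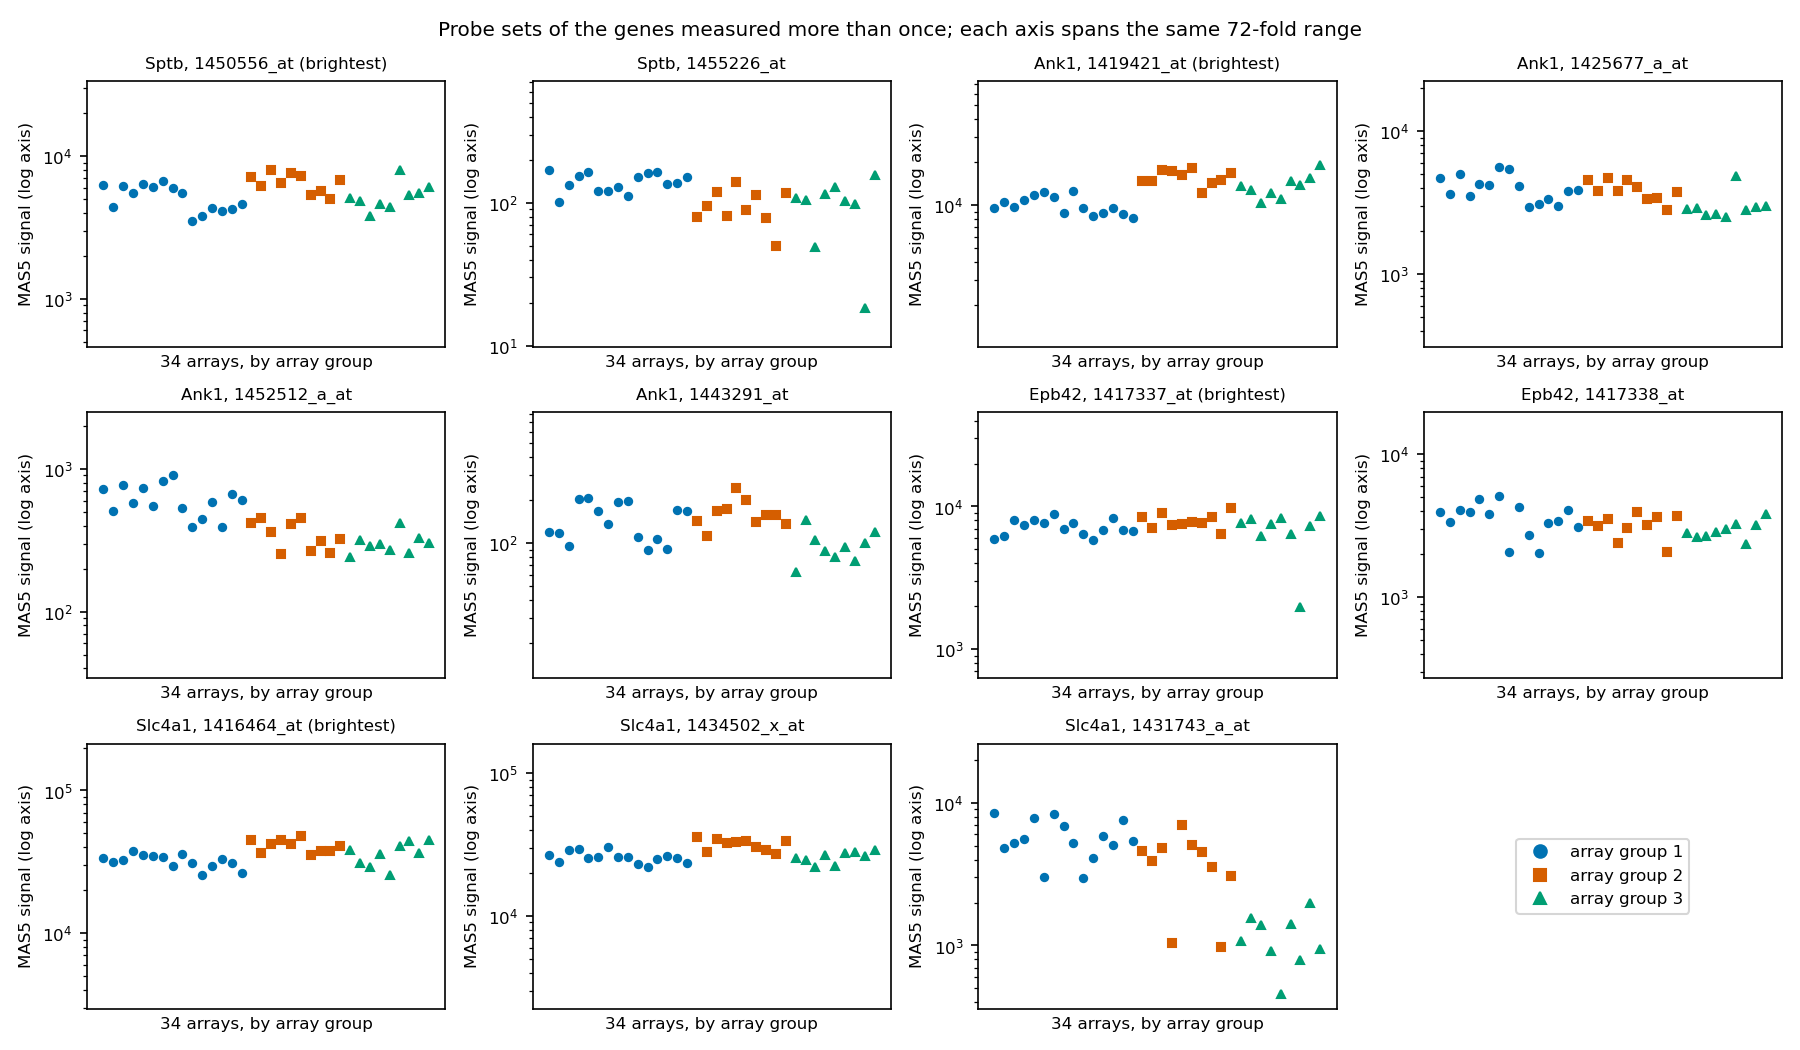
Each panel plots the MAS5 signal (log axis, the same span of fold in each panel) of 1 probe set of Sptb, Ank1, Epb42 or Slc4a1 on the 34 arrays, set in order of array group, which also gives the colour and shape. The third Slc4a1 probe set and the third Ank1 probe set fall in array group 3, while the brightest Ank1 probe set is highest in array group 2.

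The surface proteins included the 1 gene that was called. Kel read 9148, 10427 and 12637 (lowest, median and highest of 6) in Rb1;p107;p130 TKO livers, 10403, 10240, 10313, 9175 and 9588 in Rb1;p107 DKO livers, and 7378, 10046 and 11564 in 6 p107;p130 DKO livers, with 9645 on the p107 KO array. In the genotypes that carry p107 it read 9780, 12956 and 15208 (lowest, median and highest of 9) in Rb1;p130 DKO livers, 11689 and 14960 in Rb1 KO livers, 10826, 14543 and 13846 in p130 KO livers, and 11174 and 12175 in wild type livers. The 18 arrays without p107 ran from 7378 to 12637 and the 16 with it from 9780 to 15208, so the 2 sets overlap, but all 18 lie below the mean of the 16.

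Kel was lower without p107, at a raw mean of 10175 ± 1135 (SD, n = 18), against 12784 ± 1683 with it (n = 16). In the additive fit the log2 difference for p107 loss was -0.32 ± 0.06 (SE), which makes Kel 1.25-fold lower. Its 95% interval ran from -0.45 to -0.19, and the adjusted p was 0.00802 in limma. Kel was 1 of 7 genes called, against 1.14% of the 12723 tested (145 genes, 53 higher and 92 lower); the other 6 ran from -0.04 for Sptb to 0.15 for Ank1 and were not called. With array group as a block all 7 were below 0, the other 6 between -0.23 for Sptb and -0.02 for Ermap, and the median of the 7 was -0.11, against 0.05 without the block. This was not particular to the 7. With the block 21 of 27 other red cell membrane genes (median -0.16) were below 0, as were 24 of 25 other erythroid genes (median -0.13). Lists of other cell types went both ways with the block. Below 0 were 8 of 8 neutrophil genes (median -0.21) and 8 of 10 hepatocyte genes (median -0.15). Above 0 were 9 of 9 stem and progenitor genes (median 0.10). No median over all tested genes is given for the block. Under the block the Kel difference was -0.24 ± 0.07 with an adjusted p of 0.0910 in limma, which misses the threshold; the block called 0 of 7, against 0.66% of all genes. The mean of Kel was lower without p107 in each array group, with log2 differences of -0.27 in array group 1 (5 against 10 arrays), -0.37 in array group 2 (9 against 1) and -0.14 in array group 3 (4 against 5). Array group 2, the lowest group for Kel at 9741 ± 1197 (n = 10), held 9 arrays without p107 and 1 with it.

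Pairs of genotypes that differ in p107 gave negative values without a call. The log2 difference of Kel was -0.41 ± 0.16 in Rb1;p107 DKO livers against Rb1 KO livers (adjusted p 0.380 in limma, with 0.00786% of genes called in that pair). The 5 arrays read 9175 to 10403 and the 2 arrays 11689 to 14960. How many of all genes separate in this way was not counted. The 2 Rb1 KO arrays were in array group 1, the highest group for Kel. Of the 5 Rb1;p107 DKO arrays 4 were in array group 2, the lowest. The difference of -0.41 rests on the 2 Rb1 KO arrays, at -0.59 without array 1 and -0.23 without array 2, and was -0.24 with array group as a block. The Kel difference was -0.39 ± 0.14 in p107;p130 DKO livers against p130 KO livers (adjusted p 0.999 in limma). In Rb1;p107;p130 TKO livers against Rb1;p130 DKO livers it was -0.26 ± 0.10 (adjusted p 0.784 in limma), and with the block these were -0.33 and -0.18. For the 3 pairs that differ in p107 the count of members called was 0 of 7, against 0.0236% of genes for the Rb1;p107;p130 TKO pair and 0.0236% for the p107;p130 DKO pair. Kel has 1 probe set, so no second reading bears on these values.

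Pairs that differ in Rb1 called 0 of 7 genes as well, against 0.377% of genes in Rb1;p107;p130 TKO over p107;p130 DKO livers, 0.118% in Rb1;p130 DKO over p130 KO livers and 0.00786% in Rb1 KO over wild type livers. Sptb was at 0.23 ± 0.16, 0.30 ± 0.19 and 0.04 ± 0.29 in these 3, and at 0.23, 0.30 and 0.29 with array group as a block. Pairs that differ in p130 called 0 of 7, against 0.00786% in Rb1;p107;p130 TKO over Rb1;p107 DKO livers and 0% in Rb1;p130 DKO over Rb1 KO livers. Rb1;p107;p130 TKO over wild type livers called 0 of 7, against 0.0786%, with the 7 differences between -0.18 and 0.10 and their 95% intervals between -0.80 and 0.64. The interaction of Rb1 loss with p107 loss, where p130 was absent, called 0 of 7 genes, against 0% of all genes.

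**Figure D3:**
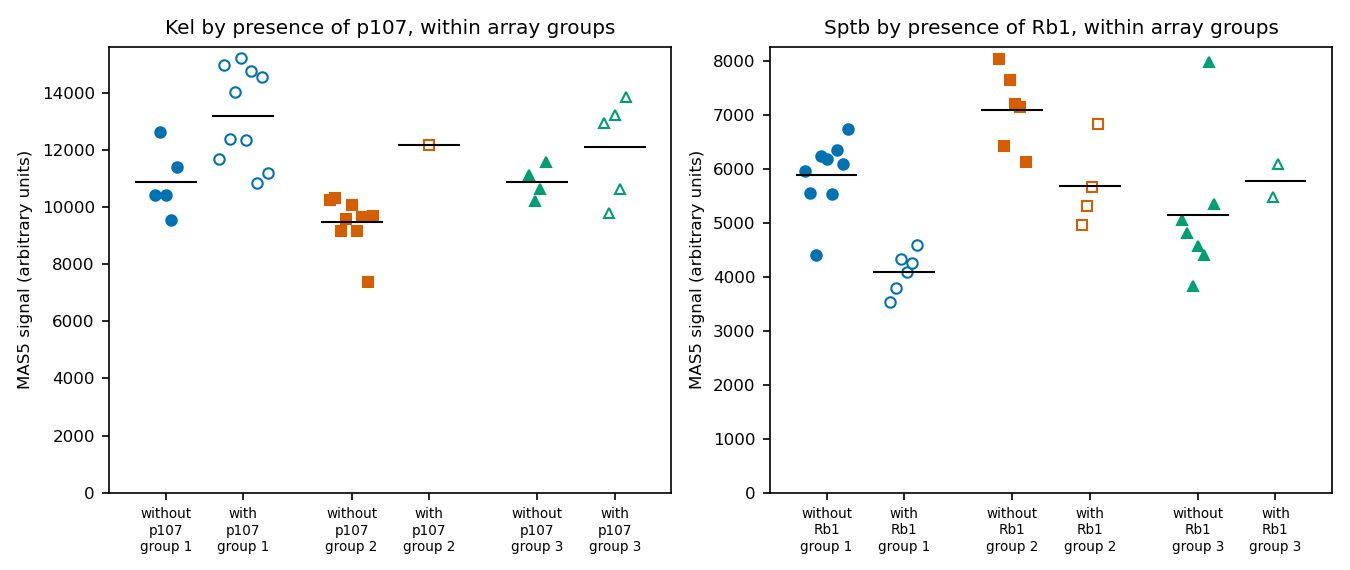
Left, Kel signal (vertical axis, arbitrary units, starting at 0) on arrays without p107 (filled) and with p107 (open) in each array group; right, Sptb on arrays without Rb1 (filled) and with Rb1 (open). Points are arrays and bars are means. Kel is lower without p107 in each group, with 1 open point in group 2, and Sptb is higher without Rb1 in groups 1 and 2 but lower on average in group 3, where 2 arrays carried Rb1.

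Other cell types' lists showed no call with p107 loss. Of the 9 stem and progenitor, 10 hepatocyte, 12 macrophage, 8 neutrophil and 7 megakaryocyte genes tested, 0 were called in any of the 3 additive terms. The shares over all tested genes were 2.26% for Rb1 loss, 1.14% for p107 loss and 0.0157% for p130 loss. Of the 3 embryonic globin genes 0 were called without the block. With it Hbb-bh1 was called lower for Rb1 loss, at -0.40 (adjusted p 0.0133 in limma). The summed signal of the stem and progenitor genes ran from 6491 to 8658 without p107, against 5652 to 8250 with it, and 8 of the 9 differences were above 0 (9 of 9 with array group as a block). The neutrophil sum ran from 39032 to 99388 without p107, against 42571 to 104276 with it, and 7 of the 8 differences were below 0 (8 of 8 with the block). Of the megakaryocyte genes 6 of 7 were above 0 (3 of 7 with the block), as were 3 of 3 embryonic globin genes (2 of 3), 4 of 10 hepatocyte genes (2 of 10) and 6 of 12 macrophage genes (6 of 12). Their part in the Kel difference was not tested.

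Rhag, the glycoprotein that carries the Rh complex to the membrane, read 12123, 13946 and 22152 (lowest, median and highest of 6) in Rb1;p107;p130 TKO livers and 13418 and 17363 in wild type livers, which overlap. Its genotype means were the closest of the set. Ermap, an erythroblast membrane protein of the Scianna blood group, read 16350, 18275 and 23875 in 6 p107;p130 DKO livers and 18327 and 27018 in wild type livers. The p130 term for Ermap was -0.22 ± 0.08, with an adjusted p of 0.396 in limma, and -0.02 with array group as a block. All 9 arrays of array group 3 lacked p130, and Ermap was dimmest in that group, at a mean of 17859. With the block, p130 loss is therefore compared within array groups 1 and 2 only. Loss of p130 called 0 of 7 genes, against 0.0157% of all genes, 2 in all, and 6 of the 7 differences were below 0, with a median of -0.10. With array group as a block 3 of 7 were below 0, with a median of 0.0086.

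**Figure D4:**
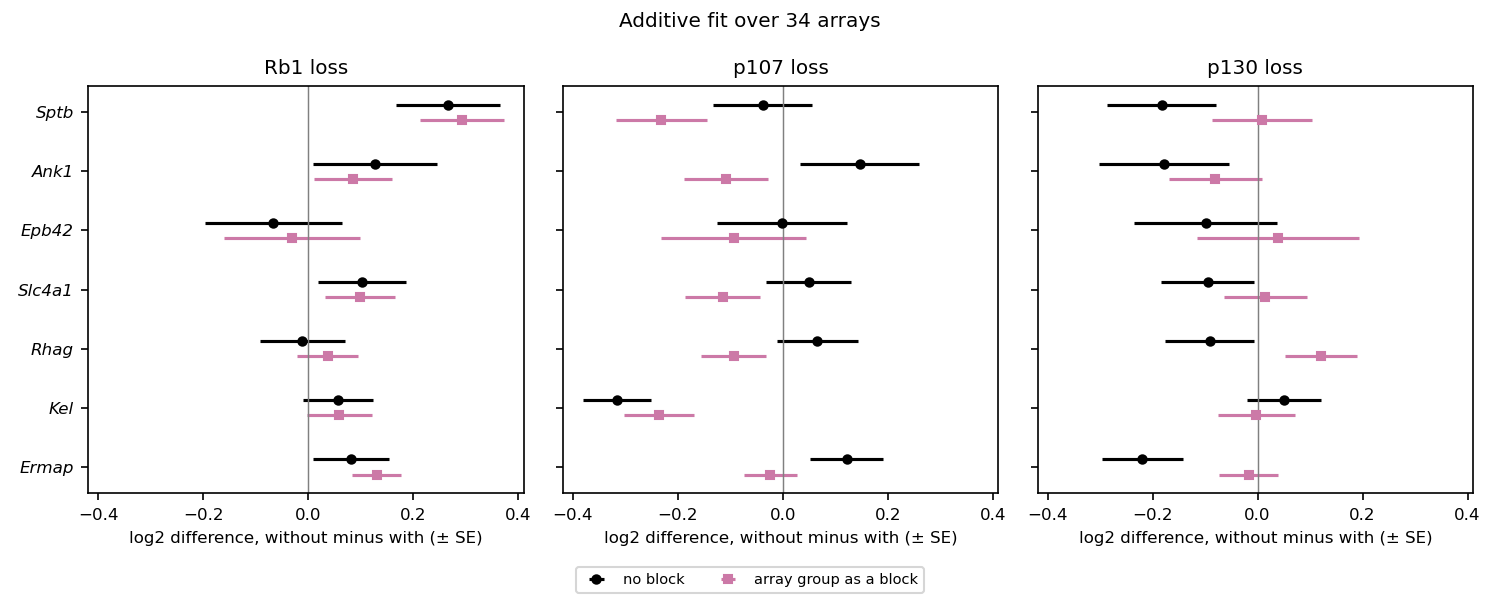
Log2 difference of each gene for loss of Rb1, p107 and p130 in the additive fit over 34 arrays (horizontal axis, without minus with, bars ± SE), without a block (black circles) and with array group as a block (pink squares). Kel stands lowest for p107 loss at -0.32, and at -0.24 with the block; Sptb is highest for Rb1 loss; Ermap for p130 loss is at -0.22, and at -0.02 with the block.

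The 7 genes varied together within array groups 1 and 2. Between pairs of the 7 genes, 21 in all, the median Pearson correlation of log2 signals was 0.67 in array group 1, 0.55 in array group 2 and 0.21 in array group 3, with 21, 19 and 13 pairs above 0. Over all 34 arrays it was 0.37, from -0.22 to 0.87, and the highest pair was Ank1 with Slc4a1. Kel stood apart over all arrays (median r with the other 6 -0.04) but not within groups, at 0.70, 0.51 and 0.65. Points in each correlation share arrays, scaling and array group, and in array group 3 every pair of Ermap was below 0.

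**Figure D5:**
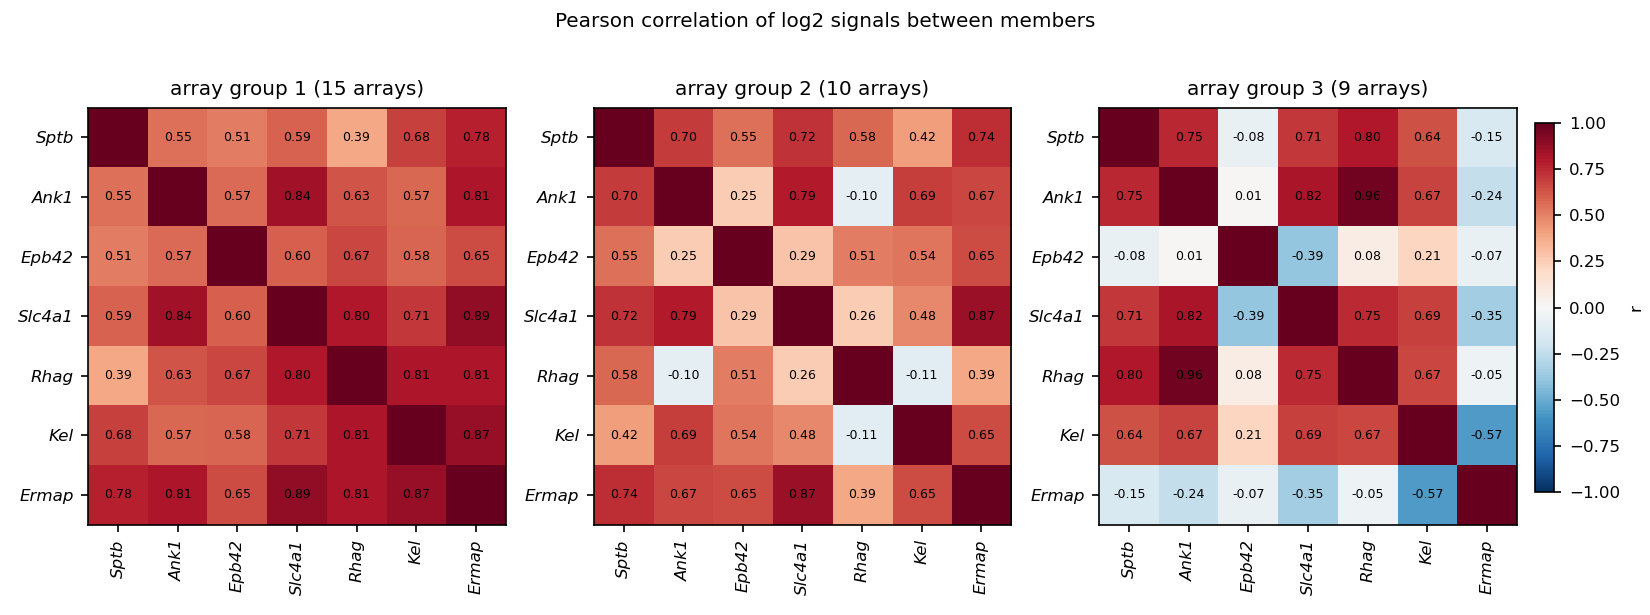
Pearson correlation of log2 signals between the 7 genes over the arrays of each array group (red positive, blue negative; numbers in the squares; no test). Most pairs are positive in array groups 1 and 2, and in array group 3 all 6 pairs of Ermap are negative, as are 3 of the 6 of Epb42.

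By the mean of the members' centred log2 signals, the genes most like the set over the 34 arrays were Cdr2 (r = 0.92), Fech (0.91), the ferrochelatase that makes heme, Ctsb (0.90), Fth1 (0.90), Cd47 (0.89), Fhdc1 (0.88), Lbr (0.88), Adipor1 (0.87), Hemgn (0.87) and Isca1 (0.87). The median r over 12716 other tested genes was -0.10. Among other red cell membrane genes it was 0.51 (27 genes), and among erythroid genes outside the membrane 0.61 (25 genes). Hepatocyte genes had a median as high, 0.58 (10 genes, -0.54 to 0.82), and neutrophil genes 0.35 (8 genes), so a high r was also found outside red cell genes.

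The rest of the red cell membrane was read through 27 further genes, all of them tested, which include other skeleton parts (Add1, Add2, Dmtn, Tmod1 and tropomyosins) and surface proteins such as Cd47 and Icam4. Rb1 loss called 1 of 27, against 2.26% of all tested genes (4.4% with the block). The gene was Add2, beta adducin, which caps actin at the mesh junctions. It read 2489 ± 380 without Rb1 (SD, n = 22), against 3068 ± 517 with it (n = 12). The log2 difference was -0.31 ± 0.08, with an adjusted p of 0.0315 in limma. The block kept Add2 at -0.33 (adjusted p 0.00577 in limma) and added Dmtn, dematin, at 0.29 (adjusted p 0.0229) and Tpm1, a tropomyosin, at -0.19 (adjusted p 0.0445). Loss of p107 and of p130 each called 0 of 27, against 1.14% and 0.0157% of all tested genes. For p107 loss 12 of the 27 differences were above 0 and 15 below, and 6 and 21 with the block. The lowest adjusted p of these for p107 loss was that of Tpm3, at 0.19 ± 0.06 (0.0906 in limma), and at 0.11 with the block. Xk, named here only because its protein is bound to Kell in human red cells, was not called. It was at -0.25 ± 0.11 for p107 loss (adjusted p 0.252 in limma), and at -0.24 with the block (0.341).

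Of the erythroid genes outside the membrane, 25 were tested. Rb1 loss called 3 lower and 1 higher, against 2.26% of all tested genes (4.4% with the block). The 3 lower were Epor, the erythropoietin receptor, at -0.83 (adjusted p 1.55e-07 in limma), Xpo7 at -0.68 (6.91e-06) and Bpgm, which makes the bisphosphoglycerate of red cells, at -0.52 (0.000192). The alpha globin gene Hba-a2 was higher, at 0.50 (0.00462). Its probe set read only 105.9 to 367.8 over the arrays, near the filter signal of 100, so the call is a result on a dim probe set. The block kept these 4 calls and added Tal1, an erythroid transcription factor, at 0.23 (0.0246). In Rb1;p107;p130 TKO over p107;p130 DKO livers Epor was called lower at -0.92 (adjusted p 0.00112 in limma) and Xpo7 at -0.77 (0.0106). Epor was also called lower in Rb1;p130 DKO over p130 KO livers, at -0.89 (0.0227), and in Rb1;p107;p130 TKO over wild type livers, at -1.11 (0.0206). Loss of p107 called 3 lower, against 1.14% of all tested genes: Ppox at -0.36 (0.00450), Epor at -0.43 (0.0119) and Slc25a38 at -0.26 (0.0135). All 3, like Kel, missed the threshold with the block (adjusted p 0.0768, 0.113 and 0.104 in limma). The block called 2 other genes lower with p107 loss, against 0.66% of all tested genes. These were Xpo7 at -0.34 (adjusted p 0.00774 in limma) and Tfrc, the transferrin receptor, at -0.26 (0.0155). Without the block they were at -0.11 and -0.09. For p107 loss 24 of the 25 erythroid differences were below 0 with the block, against 15 without it.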

How the data were processed

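The deposited values are one-colour intensity values: per the submitters' processing notes, the authors made MAS5 signals in GCOS 1.4, on a linear scale. No scan dates or detection calls were used here. Their 2% trimmed means were 495.4 to 497.7 per array. Symbols came from the platform annotation, updated through RefSeq: of 45037 probe sets 34945 had 1 symbol, 932 several (left out) and 9160 none. Each array was set to a 2% trimmed mean of 500, and values were tested as log2(signal + 32), on which scale fold changes of dim genes are understated. Each gene was its probe set with the highest mean, and 12723 of 18193 genes passed the filter. limma 3.58.1 in R 4.3.3 (lmFit, contrasts.fit, eBayes with trend, two-sided) was fitted over all 34 arrays for 14 comparisons, with Benjamini-Hochberg adjustment within each at 0.05. The fitting code was also run on simulated data with independent noise and no array groups. That run cannot show how calls behave where array group and genotype go together. The p107 KO has 1 array. For arrays, their number limits the precision.

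The rule for the members uses no measured value, but members and lists were chosen with earlier results of these data known. Every probe set of the members is described. Listed genes are named where called, up to 6 a list and comparison, and the 10 genes most like the members by correlation. Calls of listed genes under the block are named for the additive terms only. Afp, Alb and Gata1 are named as tissue markers, and Tpm3 and Xk for p107 loss, without a call. Alternatives were pseudocounts of 1 and 100, no filter, a filter of 200 on 6 arrays, quantile normalization, the mean of a gene's probe sets or each alone, eBayes without trend or robust, array weights, the replicate number or array group as a block, only the arrays of the groups compared, and arrays left out. Array groups came from 2959 genes with 2 probe sets.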

Additional observations from a re-analysis of the deposited data

Results flagged for a closer look

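Of 28 sets of values of 1 gene in 1 genotype with 4 to 10 arrays, 3 had an end value farther from the others than Dixon's 95% limit allows; chance gives about 1 in 20. Ank1 read 10489 on array 1 of the Rb1;p107 DKO, against 16268 to 18113 on the other 4. Ermap read 19743 on the same array, against 24983 to 26918. That array is the 1 array of its genotype in array group 1. Epb42 read 1971 on array 9 of the Rb1;p130 DKO, against 6414 to 8813 on the other 8. The causes were not tested.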

How the results depend on the processing

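Of the counts of members called under the alternatives, 437 stayed within 1.5 times the count reported and 4 did not. Rb1 loss called 1 member (Sptb, adjusted p 0.0119 in limma) with array weights and 1 (Sptb) with array group as a block, and the test of any difference among genotypes called 2 (Sptb and Kel) with array weights. Loss of p107 called 0 with array group as a block. The Kel difference lay between -0.36 and -0.24 over 13 alternatives, 12 of them called, and the 1 without a call was array group as a block. Kel has 1 probe set and passed every filter, so the probe set and filter settings could not move its difference. The pseudocounts could hardly move so bright a signal. Without the block it lay between -0.34 and -0.29 with each array left out, called in 34 of 34 (adjusted p 0.00290 to 0.0210 in limma). The count of members called with each array left out was 1 to 1 for p107 loss and 0 to 0 in the other comparisons. Ank1 under p107 loss reversed, at -0.092 with the mean of its probe sets, between -0.35 (1452512_a_at) and 0.15 (the brightest) over its 4 probe sets taken alone and -0.11 with array group as a block, and Rhag under p130 loss was at 0.12 with that block; the causes were not tested. Replicate numbers do not pair the arrays: deviations of arrays of the same number and different genotypes correlated at a median of 0.07 (67 pairs, -0.38 to 0.50). With the replicate block Kel was at -0.35 under p107 loss and Sptb at 0.18 under Rb1 loss, and no count of calls moved. Fitting only the arrays compared does not apply to the additive fit. The precision is limited by genotypes of 1 to 3 arrays.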
